A study of Mus musculus with 6 samples.

Results

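The genes of cytotoxic granules and of natural killer (NK) cell receptors were followed in C1498 cells, a mouse leukemia line of the C57BL/6J strain background, after 48 h with PJ34 at 20 µM, an inhibitor of the nuclear enzyme PARP-1, against the same time with PBS. The set was chosen by symbol: every granzyme gene (Gzm), every killer cell lectin-like receptor gene of the families Klra to Klrk, and Prf1, Nkg7, Ctsw, Srgn, Cst7, Ncr1, Cd160, Cd244a and Fcer1g. It held 42 genes of the 19938 with a probe set of their own, and each of the 42 had 1 such probe set. RNA was hybridised to 3 Affymetrix Mouse Gene ST arrays with PJ34 and 3 with PBS, and all values are log2 expression values for whole cultures of 1 cell line, in which fewer cells of a kind and less RNA per cell cannot be told apart. Per the labels, both groups were kept in the same medium and handled alike apart from PJ34 or PBS. The study speaks of independent experiments without describing them, and the labels do not say whether the arrays of a group came from separate cultures, so the p-values measure the spread between these arrays.

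NK cells and cytotoxic T cells kill by releasing granules that hold perforin, which opens membranes, and granzymes, which are serine proteases that cut proteins inside the target cell. Whether a granule is released depends on the balance of activating and inhibitory receptors at the cell surface. In the mouse most of these receptors are C-type lectins encoded side by side in the NK gene complex of chromosome 6. C1498 was labelled a myeloid leukemia line.

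Of the 42 genes, 3 rose with PJ34 and 0 fell at an adjusted p under 0.05 (limma, adjusted over 23412 probe sets), against 1.72% of all tested probe sets that were higher and 1.35% that were lower, or 3.07% in either direction. The members make 7.14% higher. The set was chosen with earlier results of these data known, so this share is not a test against the background. The 3 were the granzyme gene Gzma and the lectin receptor genes Klrb1b and Klrb1f, with fold changes of 1.87, 1.54 and 1.49. These 3 calls depend on the fit: by the methods' t-test with the same adjustment, or when all 35556 probe sets of the table were tested, 0 members passed, against 0.333% and 0.315% of probe sets called higher in those fits. At an unadjusted p under 0.05 from limma, 7 members were higher and 4 lower, against 8.95% and 7.74% of all tested probe sets. The median log2 fold change over the 42 was 0.03, against 0.00 over all tested probe sets. Most members were dim on these arrays. Of the 42, 35 were dimmer than 4.72, the median over the tested probe sets, where 0.769% of probe sets were called, against 5.36% at or above it. The 7 at or above it, by the mean of all 6 arrays, were Srgn, Cd160, Cst7, Klrd1, Klrb1f, Klrb1b and Klrk1. Klrb1b reached it through its PJ34 mean of 5.19, since its PBS mean was 4.57. No call of presence came with the values, so the level of a dim probe set has an unknown share of background. Of the 39 members that did not pass, 38 had a 95% confidence interval of the fold change that lay between 0.67 and 1.5, and Gzmd was the exception.

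**Figure D1:**
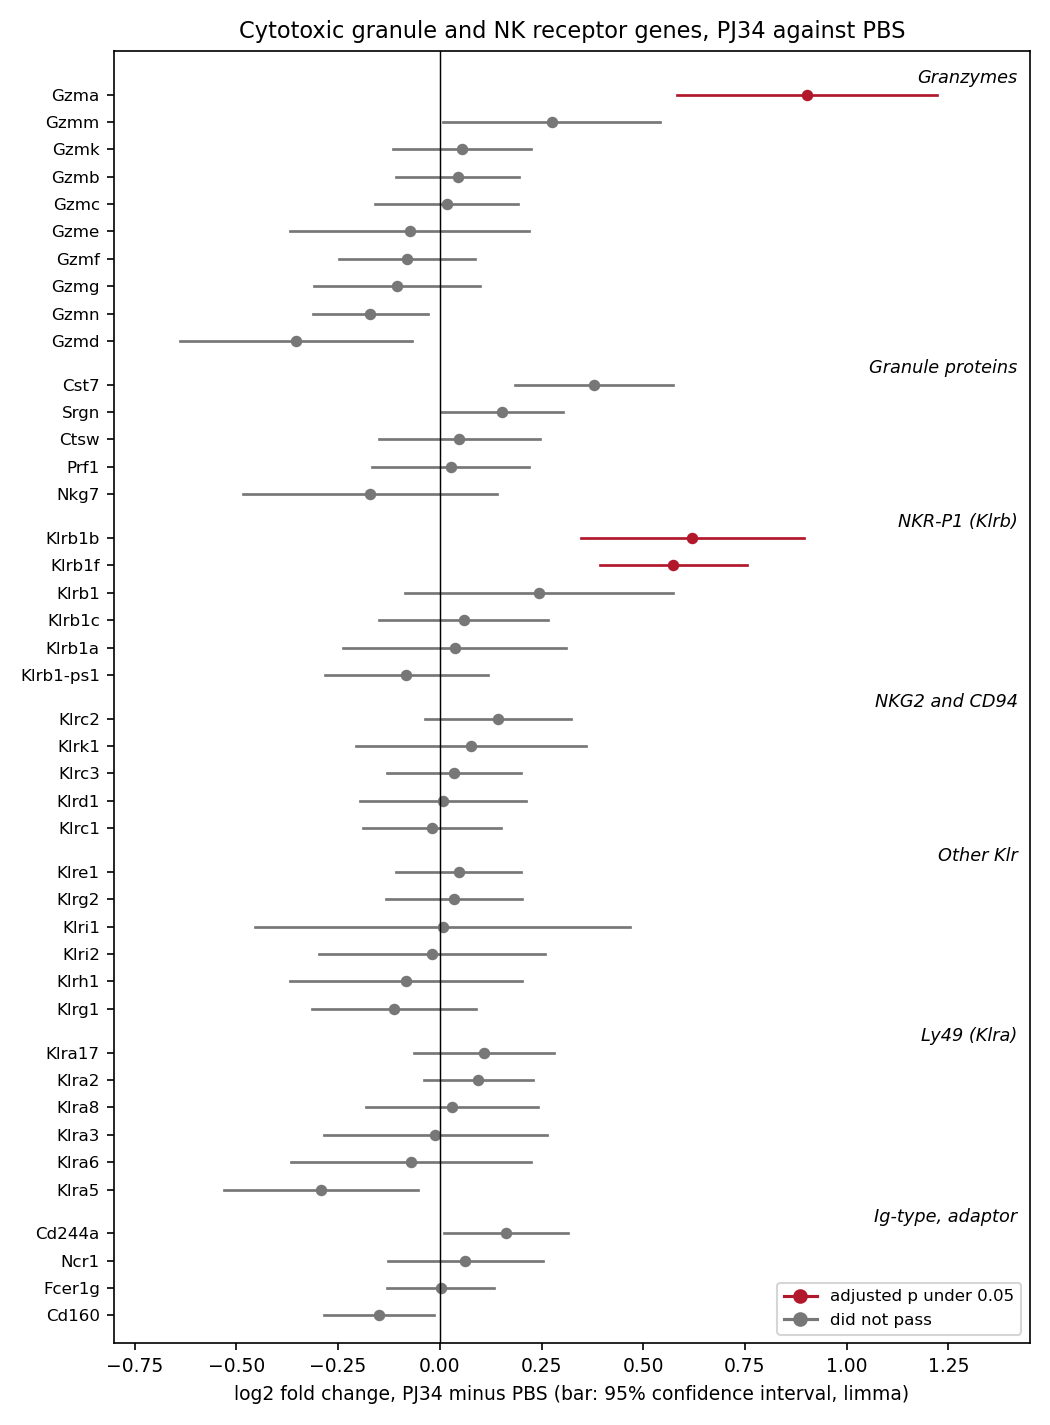
Change of the 42 genes as log2 of PJ34 over PBS, along the horizontal axis, grouped by role and ordered by value within each group. Points are limma estimates and bars their 95% confidence intervals. Gzma (0.90), Klrb1b (0.62) and Klrb1f (0.57), in red, passed the adjusted test, and the other 39, in grey, did not.

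The sequences before the starts of the 3 genes that rose are shown here because they are where the genes can be compared with each other and with a close relative that did not pass. Each is the 250 bases upstream of the RefSeq start on the gene's own strand (build GRCm38.p6). Those of Klrb1b (chr6:128826316-128826565, minus strand), Klrb1f (chr6:129045651-129045900, plus strand) and their relative Klrb1 (chr6:128723098-128723347, minus strand) belong to receptor genes of one family. Capitals mark the longest stretch that Klrb1b and Klrb1f share, 22 bases long.
Klrb1b: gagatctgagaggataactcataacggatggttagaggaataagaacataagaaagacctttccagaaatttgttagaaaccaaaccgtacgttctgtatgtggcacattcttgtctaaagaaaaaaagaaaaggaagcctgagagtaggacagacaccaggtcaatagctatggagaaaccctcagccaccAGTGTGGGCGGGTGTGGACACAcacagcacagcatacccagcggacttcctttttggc
Klrb1f: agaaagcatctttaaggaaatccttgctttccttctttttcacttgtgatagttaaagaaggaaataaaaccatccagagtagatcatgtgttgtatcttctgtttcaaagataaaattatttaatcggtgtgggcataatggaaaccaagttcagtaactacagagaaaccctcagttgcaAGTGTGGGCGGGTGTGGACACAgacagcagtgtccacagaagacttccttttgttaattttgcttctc
Klrb1: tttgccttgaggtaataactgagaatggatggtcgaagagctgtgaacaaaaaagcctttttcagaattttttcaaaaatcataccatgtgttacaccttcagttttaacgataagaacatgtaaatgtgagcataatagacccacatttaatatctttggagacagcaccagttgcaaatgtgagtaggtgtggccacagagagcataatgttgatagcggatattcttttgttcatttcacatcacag
The shared stretch, agtgtgggcgggtgtggacaca, lay at positions -58 to -37 before the start of Klrb1b and at -68 to -47 before that of Klrb1f. Among the upstream windows of 27025 genes it was found in 2, those of Klrb1b and Klrb1f. The longest piece of it in the other NKR-P1 windows was 8 bases in Klrb1a and 7 bases each in Klrb1 and Klrb1c. Over the whole 250 bases, by global alignment, Klrb1b and Klrb1f were identical at 60.4% and Klrb1f and Klrb1 at 60.8%, while Klrb1a and Klrb1c were the closest pair at 75.2%. The stretch was found after the values of the 2 genes were known, and 2 genes give no test of a link between sequence and response.

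The granzyme gene that rose, Gzma, has its start on chromosome 13 (chr13:113100982-113101231, minus strand, GRCm38.p6), beside Gzmk. In its upstream window capitals mark the letters TGTGGT, the core recognised by RUNX factors, here on the opposite strand at -50 to -45. Left in lower case are 2 other matches on the opposite strand. They are the NFAT letters GGAAAA at -92 to -87 and the T-box letters AGGTGT at -80 to -75.
Gzma: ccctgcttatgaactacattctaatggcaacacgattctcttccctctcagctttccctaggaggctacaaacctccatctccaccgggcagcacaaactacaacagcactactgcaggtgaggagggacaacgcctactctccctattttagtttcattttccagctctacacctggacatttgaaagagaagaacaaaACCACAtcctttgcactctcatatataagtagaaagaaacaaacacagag
RefSeq windows were matched for 37 of the 42 genes, leaving Ctsw, Klrb1-ps1, Klrd1, Klrg1 and Klri2. TGTGGT on either strand stood in 20 of these 37 windows (54.1%), against 14.2% of all 27025 windows of the same length. It stood in 8 of 10 granzyme windows, 4 of 4 NKG2 windows, 3 of 4 granule protein windows, 2 of 5 NKR-P1 windows, 2 of 4 windows of immunoglobulin-type receptors and adaptor, 1 of 4 of the other lectins and 0 of 6 of the Ly49 genes. The windows are not independent, since neighbouring granzyme genes carry it at like positions, such as -174 to -169 in both Gzmc and Gzmd. The windows of Klrb1b and Klrb1f did not hold these letters. The AP-1 letters TGANTCA stood in 5.41% of the member windows against 6.87% of all, the NFAT letters GGAAAA in 27.0% against 20.6%, the ETS letters CAGGAAG in 21.6% against 10.5%, and the T-box letters AGGTGT in 16.2% against 12%, each on either strand and with no overlap between motifs removed. These matches describe letters and show no binding.

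Among the granzymes, Gzma, a trypsin-like protease of lytic granules, showed the largest log2 fold change of the 42 genes. Its values were 4.65, 4.61 and 4.12 with PJ34, against 3.72, 3.49 and 3.48 with PBS. The groups did not overlap, and the third PJ34 array lay nearest to the PBS arrays. The log2 fold change was 0.90 (SE 0.14, n = 3 each, adjusted p = 0.0138 from limma), a fold change of 1.87 with a 95% confidence interval of 1.5 to 2.33. On all 6 arrays Gzma was dimmer than the median probe set, and its call was lost without PJ34 replicate 1 or 2 or without PBS replicate 2 or 3, with an adjusted p of up to 0.0631.

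Gzmb, the protease that cuts after aspartate and activates caspases, had values of 3.47, 3.46 and 3.38 with PJ34, against 3.44, 3.42 and 3.31 with PBS. The groups overlapped, and the log2 fold change of 0.04 (95% confidence interval -0.11 to 0.19) did not pass. Gzmk, the neighbour of Gzma and a protease of like specificity, had 2.61, 2.70 and 2.71 with PJ34, against 2.58, 2.54 and 2.74 with PBS. These groups also overlapped, and the log2 fold change was 0.05 (95% confidence interval -0.11 to 0.22), an interval that lies wholly below that of Gzma. Gzmk lay below the median level, where the share of background is unknown, and its difference from Gzma was not tested. Gzmm, a granzyme that cuts after methionine, had 4.24, 3.84 and 4.04 with PJ34, against 3.71, 3.95 and 3.64 with PBS. Its highest PBS array lay above its lowest PJ34 array, and the log2 fold change of 0.28 did not pass (adjusted p = 0.282 from limma).

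The rest of the granzymes belong to the cluster that lies with Gzmb, and their log2 values were low. Gzmd had 2.38, 2.04 and 2.19 with PJ34, against 2.60, 2.76 and 2.31 with PBS, the lowest log2 fold change of the 42 genes at -0.35 (adjusted p = 0.195 from limma). The first PJ34 array of Gzmd lay above the third PBS array. Gzmn had 1.86, 1.92 and 1.90 with PJ34, against 2.02, 2.04 and 2.12 with PBS. All 3 PJ34 arrays of Gzmn lay below the PBS arrays, and the log2 fold change of -0.17 did not pass (adjusted p = 0.203 from limma). Gzmc, Gzme, Gzmf and Gzmg had log2 fold changes between -0.11 and 0.02, with overlapping groups. These genes are close copies of each other, and how far their probes share signal was not examined.

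Of the 5 granule proteins 0 passed. Srgn, the proteoglycan serglycin that holds granzymes and perforin in the granule, had 11.53, 11.69 and 11.61 with PJ34, against 11.48, 11.44 and 11.45 with PBS. All 3 PJ34 arrays lay above the PBS arrays, and the log2 fold change of 0.15 (95% confidence interval 0.00 to 0.30) did not pass (adjusted p = 0.292 from limma). Cst7, cystatin F, which inhibits the cathepsins that process granzymes and perforin, had 8.285, 8.206 and 8.256 with PJ34, against 7.697, 7.913 and 7.999 with PBS. The PJ34 arrays again lay above the PBS arrays and close together. The log2 fold change of Cst7 was 0.38 (SE 0.09), and its adjusted p of 0.0556 from limma missed the threshold. With an intensity trend and robust eBayes it passed (adjusted p = 0.00427), as it did among brighter probe sets alone (adjusted p = 0.0132 from limma). The first of these fits called 4.31% of all probe sets higher and 3.93% lower, and the second 7.94% and 7.18% of the 11706 it tested.

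Prf1, perforin, had 4.55, 4.48 and 4.72 with PJ34, against 4.46, 4.66 and 4.54 with PBS. The groups overlapped, with a log2 fold change of 0.03 (95% confidence interval -0.17 to 0.22). Nkg7, a membrane protein of the granule that aids its release, had 3.58, 3.41 and 3.40 with PJ34, against 3.40, 3.53 and 3.97 with PBS. The third PBS array stood above the other 5, and the log2 fold change of -0.17 did not pass. Ctsw, a cathepsin of NK and cytotoxic T cells, had 3.89, 3.73 and 3.93 with PJ34, against 3.95, 3.72 and 3.73 with PBS, which overlapped.

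**Figure D2:**
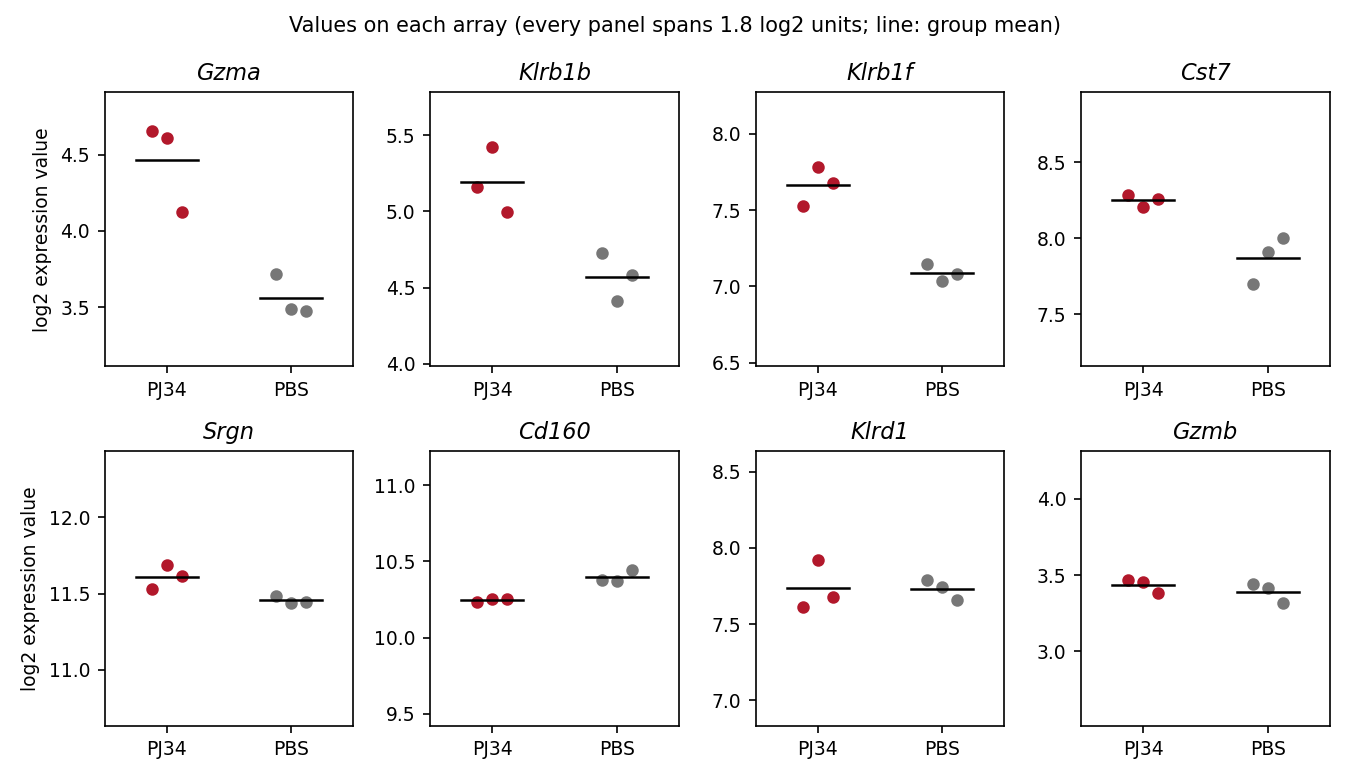
Log2 expression value (vertical axis) of 8 genes on each array, with the 3 PJ34 arrays at left and the 3 PBS arrays at right of each panel. Points are arrays and lines group means. In Gzma, Klrb1b and Klrb1f the PJ34 arrays lie above the PBS arrays, as they do by less in Cst7 and Srgn, while Cd160 lies the other way and Klrd1 and Gzmb overlap.

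The NKR-P1 receptors (Klrb genes) gave the other 2 calls. Klrb1f had values of 7.53, 7.78 and 7.68 with PJ34, against 7.14, 7.04 and 7.08 with PBS. The lowest PJ34 array stood well above the highest PBS array. The log2 fold change was 0.57 (SE 0.08, n = 3 each, adjusted p = 0.00883 from limma), and the call held whichever of the 6 arrays was left out. Klrb1b, an inhibitory receptor that binds the lectin Clec2d, had 5.16, 5.42 and 5.00 with PJ34, against 4.73, 4.41 and 4.58 with PBS. The groups did not overlap. The log2 fold change was 0.62 (SE 0.12, n = 3 each, adjusted p = 0.0324 from limma), and leaving out any array but PJ34 replicate 3 lost the call, with an adjusted p of up to 0.115.

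The other 4 Klrb genes did not pass and were dim. The PBS mean of Klrb1b, 4.57, also lay below the median level of 4.72. Klrb1c, which encodes the NK1.1 antigen used to mark NK cells of C57BL/6 mice, had 1.801, 2.005 and 1.876 with PJ34, against 1.687, 1.978 and 1.842 with PBS. The groups overlapped, with a log2 fold change of 0.06 (95% confidence interval -0.15 to 0.27), which lies below the interval of Klrb1f (0.39 to 0.75) and that of Klrb1b (0.35 to 0.89). Klrb1, Klrb1a and the pseudogene Klrb1-ps1 had log2 fold changes of 0.24, 0.04 and -0.08. The interval of Klrb1 (-0.08 to 0.57) overlaps those of Klrb1b and Klrb1f, and differences between members were not tested.

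Clec2d and Clec2i, a known ligand of each of the 2 receptors, were read on the same arrays. Clec2d had 6.90, 7.05 and 7.13 with PJ34, against 6.79, 6.77 and 6.72 with PBS. The groups did not overlap, but the log2 fold change of 0.27 did not pass (adjusted p = 0.103 from limma). Clec2i, which binds the Klrb1f receptor, had 4.06, 4.03 and 4.19 with PJ34, against 3.75, 4.05 and 3.87 with PBS, and its groups overlapped.

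Of the NKG2 receptors and their partner CD94, 0 of 5 passed. Klrd1, which encodes CD94 and pairs with NKG2 chains, was clearly above the median level, with 7.61, 7.92 and 7.68 with PJ34, against 7.79, 7.74 and 7.66 with PBS. The groups overlapped throughout, and the log2 fold change was 0.01 (95% confidence interval -0.20 to 0.21). Klrk1, the activating receptor NKG2D, had 4.84, 5.23 and 4.73 with PJ34, against 4.81, 4.96 and 4.81 with PBS. Klrc1, the inhibitory chain NKG2A, had 2.31, 2.19 and 2.12 with PJ34, against 2.14, 2.28 and 2.25 with PBS. Both overlapped, with log2 fold changes of 0.08 and -0.02, while those of Klrc2 and Klrc3 were 0.14 and 0.03.

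The Ly49 receptors (Klra genes), which in the mouse bind class I MHC molecules, had 0 of 6 called, and all 6 lay below the median level. Klra5, also known as Ly49E, had 2.09, 1.79 and 1.70 with PJ34, against 2.06, 2.20 and 2.18 with PBS, a log2 fold change of -0.29 (adjusted p = 0.197 from limma) with 1 PJ34 array inside the PBS range. Klra2, Klra3, Klra6, Klra8 and Klra17 had log2 fold changes between -0.07 and 0.11. A further 10 Klra genes in the RefSeq annotation had no probe set of their own. There were 4 probe sets assigned to 3 to 7 Klra genes each, with log2 fold changes of 0.10, -0.09, -0.15 and 0.10, and none passed. Some of these also hold the members Klra3, Klra5, Klra6 and Klra8. Klra5 is in the one at -0.09 and in the last, at 0.10.

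Of the other 6 lectin receptors 0 passed. Klrg1, an inhibitory receptor of mature NK and effector T cells that binds cadherins, had 2.99, 2.95 and 2.96 with PJ34, against 3.01, 3.27 and 2.95 with PBS. The groups overlapped, and the log2 fold change was -0.11 (95% confidence interval -0.31 to 0.09). Klre1, Klrg2, Klrh1, Klri1 and Klri2 had log2 fold changes between -0.08 and 0.05, with the widest interval in Klri1 (-0.45 to 0.47).

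Receptors of the immunoglobulin type and the adaptor Fcer1g gave 0 calls of 4. Cd160, a receptor of NK cells and T cells anchored in the membrane by a lipid, was well above the median level, with 10.23, 10.25 and 10.25 with PJ34, against 10.38, 10.37 and 10.44 with PBS. All 3 PJ34 arrays lay below the PBS arrays, and the log2 fold change of -0.15 did not pass (adjusted p = 0.244 from limma). With an intensity trend and robust eBayes, Cd160 was lower (adjusted p = 0.0329) and Srgn higher (adjusted p = 0.0340), and neither passed in any other setting.

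Cd244a, the receptor 2B4, which binds Cd48, had 4.57, 4.60 and 4.70 with PJ34, against 4.52, 4.43 and 4.42 with PBS. The groups did not overlap, and the log2 fold change of 0.16 did not pass (adjusted p = 0.263 from limma). Ncr1, the activating receptor NKp46, had 2.58, 2.46 and 2.76 with PJ34, against 2.52, 2.58 and 2.51 with PBS, with overlap. Fcer1g, the signalling chain shared by several activating receptors, had 4.659 on each PJ34 array (SD 0.0), against 4.65, 4.64 and 4.68 with PBS. Its log2 fold change was 0.00 (95% confidence interval -0.13 to 0.13). Why the PJ34 values were so alike was not examined.

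Of the 42 genes, 7 had all PJ34 values above all PBS values (16.7%) and 2 had all below (4.76%), against 12.6% and 10.9% of all tested probe sets. With 3 arrays a group, 0.1 is the smallest p that an exact two-sided permutation test of 1 gene allows, and each gene whose groups did not overlap had it.

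Both Klrb genes that rose lie in the NK gene complex. From Klrb1a to Klra2 the annotation orders 51 genes, of which 37 had a probe set of their own, 21 of them members. The 2 called genes were Klrb1b and Klrb1f, with 4 annotated genes between them, and 0 of the 16 other genes passed. Of these 16, Clec2d and Cd69 had groups that did not overlap. Cd69, an early activation antigen of lymphocytes, had 8.42, 8.64 and 8.47 with PJ34, against 8.18, 8.23 and 8.25 with PBS, a log2 fold change of 0.29 (adjusted p = 0.0855 from limma). Between the 2 called genes, Clec2i and Clec2g had log2 fold changes of 0.21 and 0.01.

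**Figure D3:**
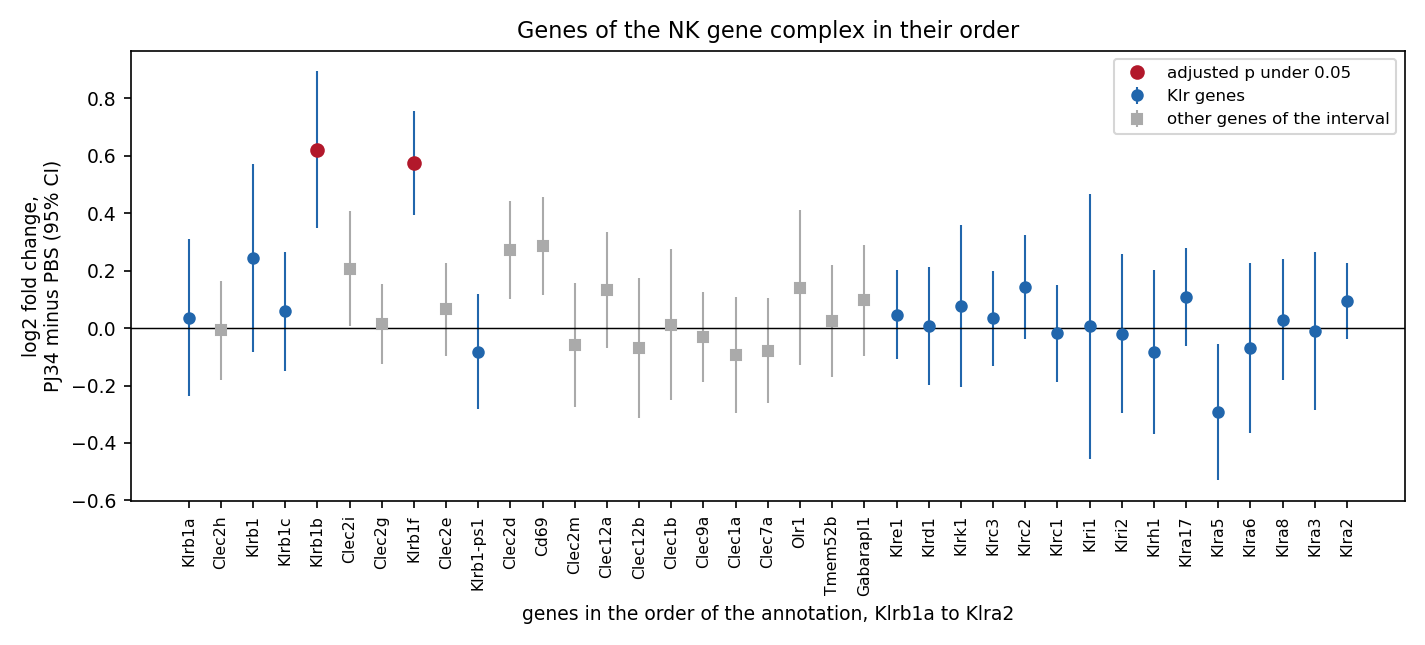
Vertical axis, log2 of PJ34 over PBS with 95% confidence intervals, for the 37 genes with a probe set of their own between Klrb1a and Klra2, in the order of the annotation and not to scale of distance. Circles are Klr genes and squares other genes. Klrb1b and Klrb1f, in red, passed the adjusted test, and of the Klrc and Klra genes at the right Klra5 (-0.29) is the one whose interval does not reach 0.

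The rest of the pathway was read from 7 lists, in which 128 of 145 genes were measured. Of these 128, 12 rose (9.38%) and 3 fell, against 1.72% higher and 1.35% lower of all tested probe sets. The median log2 fold change was 0.06. The lists too were chosen with earlier results known, so these shares are not a test against the background. Of the 128, 81 were at or above the median level, where 5.36% of probe sets were called in either direction. By the methods' t-test 0 rose and 0 fell, and with all probe sets of the table tested 1 rose and 0 fell. Of 21 genes for release of granules 2 rose. Sytl3, a binding partner of Rab27 on secretory vesicles, rose, at 4.97, 4.90 and 4.88 with PJ34, against 4.61, 4.47 and 4.21 with PBS, a log2 fold change of 0.48 (adjusted p = 0.0403 from limma). Lamp1, the granule membrane protein that appears on the surface of cells that have released granules, rose, at 9.11, 9.04 and 9.03 with PJ34, against 8.68, 8.75 and 8.76 with PBS, a log2 fold change of 0.33 (adjusted p = 0.0289 from limma). Each of these 2 passed in 1 of the 6 fits that left out an array, Sytl3 without PBS replicate 1 and Lamp1 without PJ34 replicate 2. The docking factor Rab27a had 7.31, 7.21 and 7.18 with PJ34, against 7.42, 7.53 and 7.49 with PBS. All 3 PJ34 arrays lay below the PBS arrays, and the log2 fold change of -0.24 did not pass (adjusted p = 0.0994 from limma). With robust eBayes and an intensity trend it was lower (adjusted p = 0.0266), as it was among brighter probe sets alone (adjusted p = 0.0238 from limma). Unc13d, which primes granules for release, had a log2 fold change of -0.12 and did not pass. Of 11 genes that process or inhibit granzymes 0 passed, among them the activating protease Ctsc (-0.09) and the granzyme B inhibitor Serpinb9 (-0.12).

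Of 28 adaptors and signalling genes 2 rose. Sh2d1a, the adaptor SAP that binds Cd244 and related receptors, had 5.86, 5.85 and 5.78 with PJ34, against 5.37, 5.10 and 5.33 with PBS. Its log2 fold change was 0.56 (adjusted p = 0.0109 from limma), and it passed in all 6 fits that left out an array. Lcp2, the adaptor SLP-76, had a log2 fold change of 0.48 (adjusted p = 0.0129 from limma) and lost the call without PBS replicate 2 or 3. Tyrobp, the adaptor of activating Ly49 and NKG2 receptors, had 4.37, 3.76 and 4.38 with PJ34, against 3.95, 3.83 and 3.88 with PBS. The second PJ34 array lay below all PBS arrays, and the log2 fold change of 0.29 did not pass (adjusted p = 0.41 from limma). Without PJ34 replicate 2 it was 0.49 and passed (adjusted p = 0.0203 from limma). Hcst, which signals for NKG2D, had a log2 fold change of -0.06 and did not pass. Of 12 ligands of the receptors 0 passed, Cd48 included (0.18).

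Of 32 transcription factors of the cytotoxic and neighbouring lineages 3 rose and 3 fell. Id2, an inhibitor of E proteins needed for NK cells to form, had 5.87, 5.81 and 5.50 with PJ34, against 5.17, 5.07 and 5.10 with PBS, a log2 fold change of 0.61 (adjusted p = 0.0169 from limma). Bhlhe40, a repressor induced on lymphocyte activation, rose by 0.58 on the log2 scale, and Gata3, a factor of T and innate lymphoid cells, by 0.34. Zbtb7b, which directs helper T cells and restrains the cytotoxic program, had 6.70, 6.51 and 6.43 with PJ34, against 7.02, 7.11 and 7.15 with PBS, a log2 fold change of -0.55 (adjusted p = 0.0133 from limma). Zeb2, a factor of terminal NK and effector T cell maturation, fell by 0.30, and Bcl11b, a factor of T cell commitment, by 0.33. Zeb2 and Bcl11b passed in 0 of the 6 fits that left out an array. Id2 passed only without PJ34 replicate 3 and Gata3 only without PJ34 replicate 2, while Bhlhe40 and Zbtb7b lost their calls without PBS replicate 2 or 3.

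The factors best known for driving granzyme and perforin genes did not pass. Runx3, well above the median level, had 8.12, 8.12 and 8.10 with PJ34, against 8.17, 8.09 and 8.18 with PBS, with overlap and a log2 fold change of -0.03. Tbx21 and Eomes, the T-box factors, lay below the median level, with log2 fold changes of 0.05 and -0.17. Runx1 and Ets1, of the same list, had PJ34 arrays that all lay above the PBS arrays. Their log2 fold changes of 0.25 and 0.56 did not pass (adjusted p = 0.0771 and 0.0776 from limma).

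Of 12 effector ligands and cytokines 3 rose. The log2 fold changes were 0.83 for the chemokine Ccl3, 0.63 for the growth factor Csf2 and 0.51 for Tnfsf14, a TNF family ligand, and each passed in all 6 fits that left out an array. Ccl3 and Csf2 lay below the median level. Of 12 cytokine receptors 2 rose, Il7r by 0.94 and Il21r by 0.43 on the log2 scale. Il7r, also below the median level, passed in all 6 such fits, and Il21r passed only without PJ34 replicate 1.

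**Figure D4:**
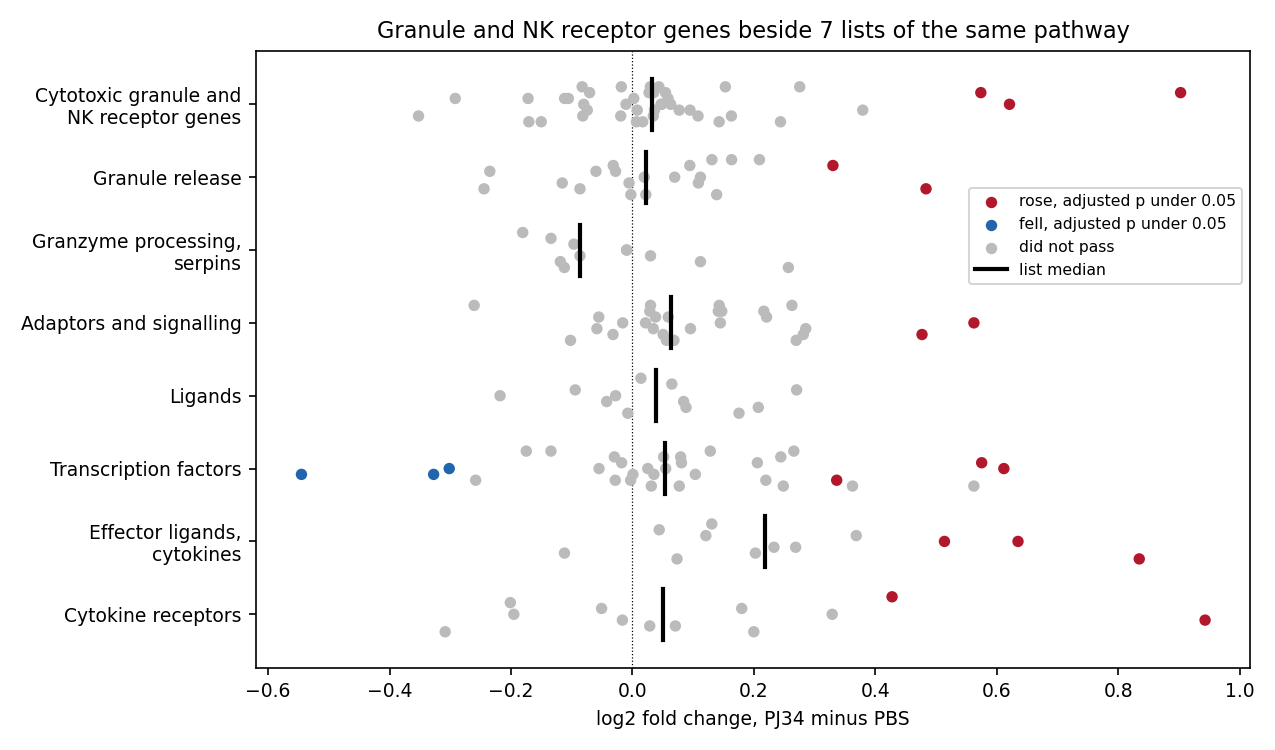
Horizontal axis, log2 of PJ34 over PBS, for the 42 granule and receptor genes, top, and of the genes of 7 lists of the same pathway. Each point is a gene, red where it rose and blue where it fell at an adjusted p under 0.05, and black lines are list medians. The medians lie between -0.09 (processing and inhibition of granzymes) and 0.22 (effector ligands and cytokines), with that of the 42 genes at 0.03.

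The labelled cell type was set against lineage markers. Of 20 myeloid markers 5 lay at or above the median level, namely Cebpa, Cebpe, Cd68, Fcgr1 and Fcgr3. Their PBS means were 4.93, 4.83, 4.716, 6.82 and 6.98 in that order, against a median level of 4.718. The PBS mean of Cd68 thus lay just below that level, and Cd68 reached it through its PJ34 mean of 5.23. The other 15, among them Spi1, Mpo, Elane and Lyz2, lay below it. Cd68 and Fcgr1 rose, with log2 fold changes of 0.51 and 0.63, and the median over the list was -0.02. Of 16 T cell markers 8 lay at or above the median level, namely Cd3d, Cd3e, Cd3g, Cd28, Lat, Bcl11b, Gata3 and Zbtb16. Their PBS means were 4.81, 10.38, 11.10, 7.24, 7.57, 6.24, 9.04 and 4.89 in that order. Cd247, Cd4, Cd8a, Cd8b1, Cd2, Cd5, Cd6 and Thy1 lay below the median level. Cd4, Cd28 and Gata3 rose and Bcl11b fell, and the median log2 fold change of the list was 0.02. The sum of its log2 values was 95.1 to 96.4 with PJ34, against 93.3 to 94.2 with PBS. Without Cd28 and Cd4 the sums overlapped, at 81.9 to 83.3 with PJ34, against 82.2 to 83.2 with PBS. Both genes left out had risen, while Gata3, which rose, and Bcl11b, which fell, were kept, so this overlap is no test of the other markers.

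Of 18 NK markers 5 lay at or above the median level, and 7 of the 18 are themselves among the 42 genes, Gzma included, so the list is not independent of them. Cd7 (log2 fold change 1.66) and Gzma rose, and the median over the list was 0.06. The sum of the log2 values was 80.6 to 81.5 with PJ34, against 77.0 to 77.6 with PBS. Without Cd7 and Gzma, the genes that rose, it was 66.8 to 68.0 with PJ34, against 65.8 to 66.5 with PBS. Both were left out for having risen, so these sums are no test of the other markers. Of 11 B cell markers, each read by its probe set of highest mean, 0 lay at or above the median level and 0 passed. Ighm has 3 probe sets, of which another, the one that the study names, rose by 1.67 on the log2 scale (adjusted p = 0.00289 from limma). Of 14 mast cell and basophil markers, a lineage that also uses Srgn, 0 passed, and Cpa3 (11.82 to 12.06 on the 6 arrays) and Mcpt8 were the 2 at or above the median level. Of 7 megakaryocyte markers Ppbp rose. The part of these shifts in the changes of the 42 genes was not tested.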

How the data were processed

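The authors summarised each array with RMA in Affymetrix Expression Console 1.3.1, and the deposited values are log2 expression values, background corrected and quantile normalized, 1 per probe set and array. A genome build for the array annotation is not given in the sources used here. Of 35556 probe sets, the gene table named 21789 by 1 gene and 1621 by several. These and 2 that the study names were compared (23412), PJ34 minus PBS, with limma 3.58.1 in R 4.3.3 and Benjamini-Hochberg adjustment over all of them, after a check on simulated data. The number of arrays limits the precision, and array medians were 4.41 to 4.46. Sequences came from RefSeq tables (GRCm38.p6). The members and lists were chosen with earlier results of these data known. Named with all values were members past the threshold, the 5 largest rises and falls, the 10 highest in PBS, and a list of well-known genes. From the 7 lists, genes past the threshold, some fixed genes and a few others were named. The closing section gives the alternatives' effects.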

Additional observations from a re-analysis of the deposited data

How the results depend on the processing

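No member or list gene named here changed direction while called. With an intensity trend and robust eBayes, 1009 probe sets were higher and 921 lower, among them 5 members higher and 1 lower, and 23 pathway list genes higher and 6 lower. By the methods' t-test these counts were 78 and 65, with 0 members higher, and 0 list genes higher and 0 lower. Testing every probe set of the table gave 112 and 76, with 0 members higher, and 1 list gene higher and 0 lower. Leaving out dim probe sets gave 929 and 840, with 19 list genes higher and 7 lower. The member median was then 0.15 on the log2 scale, since only the 7 members brighter by the mean of all 6 arrays were counted. Centring each array on its median gave a member median of 0.0121 and 1 list gene lower. Repeating quantile normalization gave 482 probe sets and 5 list genes lower. The causes of the other changes were not tested. Leaving out 1 array gave 148 to 282 probe sets higher and 83 to 321 lower, 1 to 3 members higher and 0 lower, a member median of 0.0146 to 0.0359, and 5 to 10 list genes higher and 0 to 1 lower.

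The replicate numbers do not pair the arrays by any label, and same-numbered arrays deviated with correlations of -0.01, 0.13 and -0.01. With the replicate number as a block, 222 probe sets were higher and 143 lower, 1 list gene was lower, and Klrb1b had an adjusted p of 0.0714 from limma. Only the arrays numbered 2 correlated best with their own number. Each member had 1 probe set of its own, so another choice among such probe sets gave nothing to run. For dim probe sets the share of background in the signal is unknown.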
